A study of Mus musculus with 12 samples.

Results

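The constitutive proteasome subunits were taken from the array annotation as every gene with a single symbol that begins with Psma, Psmb, Psmc or Psmd and a digit, except Psmb8, Psmb9 and Psmb10, which encode the inducible subunits of the immunoproteasome. This gave 37 of the 18194 genes tested, each represented by its probe set with the highest mean over 12 arrays. By name 16 belong to the core particle (Psma and Psmb) and 21 to the regulatory particle (Psmc and Psmd), and 31 of the 37 are subunits of the standard proteasome. The other members are Psma8, a testis form of an alpha subunit, Psmb11, a thymus form of a catalytic subunit, the assembly chaperones Psmd5, Psmd9 and Psmd10, and Psmc3ip, a protein of meiotic recombination that carries a proteasome name only.

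The samples were mouse BNL CL.2 cells, an established line of liver origin, grown for 24 h and profiled on Affymetrix arrays, 3 arrays in each of 4 groups. Culture inserts held a second batch of cells in every group. In the group alone these were further BNL CL.2 cells and no iron was added. The group FAC had the same kind of insert and received ferric ammonium citrate (FAC), an iron salt that dissolves in medium, at 100 micromolar. The inserts of the group RAW contained the macrophage line RAW 264.7, also of mouse, without added iron, and the group RAW_FAC had both these macrophages and 100 micromolar of the iron salt. Both cell types are lines, so the groups describe these cells and not liver tissue. The labels do not state whether replicates came from separate cultures, so the p-values reflect only how far these samples spread, which may be technical.

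The proteasome degrades proteins that carry ubiquitin chains. Its core particle is a barrel of stacked rings, with alpha subunits that gate the entrance and beta subunits that include the proteolytic sites, and its regulatory particle has a base, whose ATPases unfold the substrate, and a lid, which removes ubiquitin. The subunits are made in fixed proportions, and the transcription factor Nfe2l1 is known to raise their genes together when the proteasome is inhibited, through antioxidant response elements near their start sites.

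Promoter sequences from RefSeq (build GRCm38.p6, 250 bases before to 50 bases after the start) were found for 30 of the 37 members, in 32 windows of 300 bases. They were searched on both strands for TGACNNNGC, the core of the antioxidant response element, and for the CCAAT box, CCAAT. The promoters of the catalytic subunits Psmb5 (chr14:54617946-54618245, minus strand) and Psmb6 (chr11:70525107-70525406, plus strand) are shown because each holds the first motif, in capitals. Those of Psma4 (chr9:54950609-54950908, plus strand) and Psmd5 (chr2:34870913-34871212, minus strand) are shown because these 2 genes followed the other members most closely over the 12 arrays and hold neither motif in these windows.
Psmb5: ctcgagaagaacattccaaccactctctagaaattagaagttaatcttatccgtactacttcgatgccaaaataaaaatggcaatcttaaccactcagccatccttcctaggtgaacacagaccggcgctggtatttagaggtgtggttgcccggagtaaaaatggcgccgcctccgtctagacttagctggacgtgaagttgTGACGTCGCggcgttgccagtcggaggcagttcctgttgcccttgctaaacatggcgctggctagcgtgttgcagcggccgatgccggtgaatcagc
Psmb6: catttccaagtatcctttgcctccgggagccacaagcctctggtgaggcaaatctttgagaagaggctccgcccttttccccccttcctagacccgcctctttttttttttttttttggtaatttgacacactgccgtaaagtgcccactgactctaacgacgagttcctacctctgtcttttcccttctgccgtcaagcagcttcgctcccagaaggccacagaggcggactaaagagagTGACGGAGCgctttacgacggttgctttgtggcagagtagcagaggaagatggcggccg
Psma4: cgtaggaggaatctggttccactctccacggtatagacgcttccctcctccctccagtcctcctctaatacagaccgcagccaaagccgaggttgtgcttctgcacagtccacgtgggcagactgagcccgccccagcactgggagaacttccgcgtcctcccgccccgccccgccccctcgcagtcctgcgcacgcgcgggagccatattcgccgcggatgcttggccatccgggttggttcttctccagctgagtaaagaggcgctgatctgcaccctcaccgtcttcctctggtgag
Psmd5: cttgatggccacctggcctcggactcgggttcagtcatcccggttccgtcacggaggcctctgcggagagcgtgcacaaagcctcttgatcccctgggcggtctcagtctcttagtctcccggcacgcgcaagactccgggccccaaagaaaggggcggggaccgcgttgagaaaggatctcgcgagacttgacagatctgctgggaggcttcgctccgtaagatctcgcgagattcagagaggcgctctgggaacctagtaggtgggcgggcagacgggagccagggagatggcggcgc
In the Psmb5 window the motif starts at base 204 from the 5′ end, and in the Psmb6 window at base 242, on the strand shown in both. TGACNNNGC was found in 5 of the 32 member windows (15.6%), those of Psmb5, Psmb6, Psmc6, Psmd12 and Psmd9, against 4071 of all 32851 promoter windows (12.4%). CCAAT was found in 13 of 32 (40.6%), against 37.4% of all windows, in 7 of 13 core windows (53.8%) and in 6 of 19 regulatory windows (31.6%). These shares describe the letters in the windows and give no measure of factor binding.

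The array values are log2 signals, and the 31 standard subunits had mean signals from 10.5 to 13.3 (median 12.5), near the top of a scale that ran from 2.42 to 14.6 over all probe sets. Signals of different probe sets are not amounts of RNA and were not ranked. The probe sets of Psma8 (3.88) and Psmb11 (4.41) lay below the array medians of 5.63 to 5.68. The members varied little. Their residual SD within groups had a median of 0.048, against 0.11 for all genes and 0.082 for the 2742 genes at or above the lowest standard subunit. The range over all 12 arrays was under 0.3 in 29 of 37 members (78.4%), against 30.4% of all genes and 61.7% of those 2742 genes. The 4 group means of a member differed by a median of 0.080 and at most by 0.19.

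Marker genes described the cultures as follows. Of 12 macrophage markers, Ptprc, the pan-leukocyte antigen, averaged 3.50 over the 12 arrays and Adgre1, the macrophage antigen F4/80, 4.96, whereas the receptor Cd14 averaged 12.04. The summed linear signal of the 12 markers was 4406 to 4974 in alone and 4370 to 5053 in FAC. It was 4323 to 4673 in RAW and 4690 to 5158 in RAW_FAC, so that RAW and RAW_FAC lay apart and the other pairs of groups overlapped. Most of this sum came from Cd14, as the next highest marker, Laptm5, averaged 6.91. Cd14 had group means of 12.03 in alone, 12.05 in FAC, 11.95 in RAW and 12.12 in RAW_FAC. Of 8 measured hepatocyte markers, Alb, the gene of serum albumin, averaged 5.20 and the hepatocyte factor Hnf4a 10.5, and the summed signal was 2146 to 2309 in alone and 2156 to 2409 in FAC. Bulk RNA cannot separate fewer cells of a type from less RNA per cell. The 3′ minus 5′ difference of the Gapdh control probe sets was 0.056 to 0.11 in the replicates numbered 3 and -0.053 to 0.0060 in the others, with overlapping ranges between groups.

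**Figure D1:**
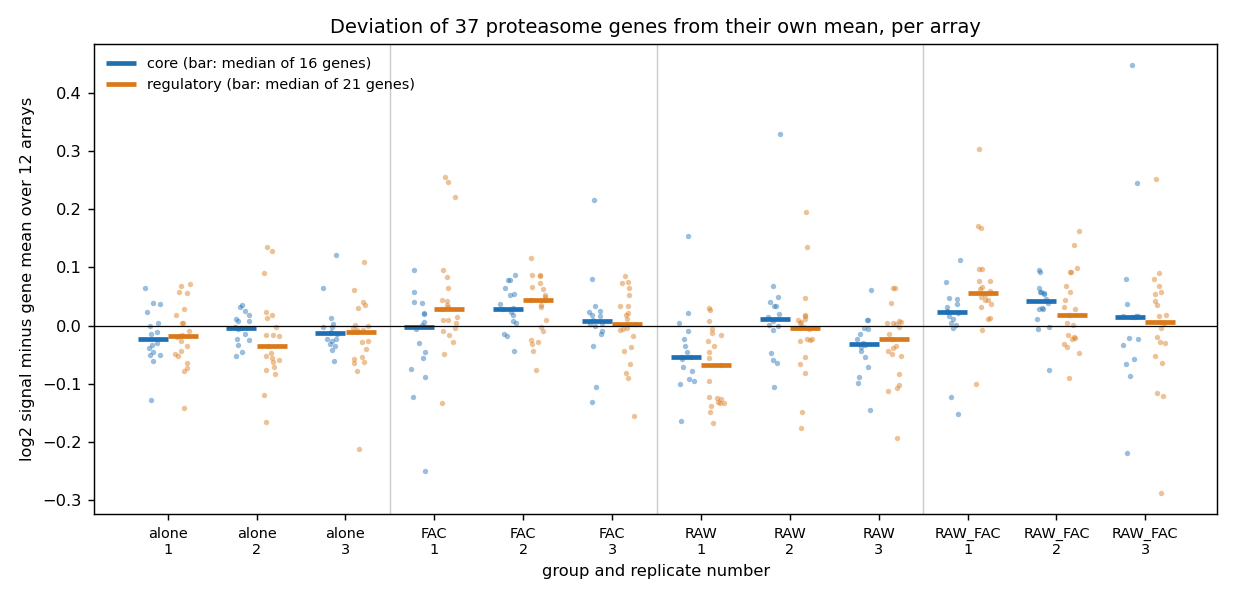
The vertical axis is the log2 signal of each of the 37 members minus its own mean over 12 arrays, and the horizontal axis gives the group and replicate number; points are genes and bars are medians of the 16 core and 21 regulatory members. The median over all members was above 0 in the 6 arrays with iron and below 0 in 5 of the 6 arrays without it.

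With iron and without macrophages, proteasome genes were slightly higher in most cases. Comparing FAC with alone asks how the liver line differed with the iron salt. Of 37 members 31 had a higher mean in FAC (83.8%, against 47.8% of all genes and 40.6% of the 2742 genes with signals as high), and the median difference was 0.040 on the log2 scale (1.03-fold), against -0.0043 for all genes. The same-number pairs, which are arrays of 2 groups with one replicate number, gave medians of 0.030, 0.059 and 0.021. In 15 members (40.5%, against 13.4% of all genes) the difference was above 0 in all 3 pairs. None of these differences passed the test. limma called 0 of 37 members at a Benjamini-Hochberg adjusted p under 0.05 (0% of all genes), and 0 with the replicate number as a block (0.033% of all genes). At an unadjusted p under 0.05 it counted 0 members in either fit, against 3.03% and 6.57% of all genes.

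In 7 members all 3 FAC arrays lay above all 3 alone arrays (3.74% of all genes), and in 0 members below (3.82%). They were the alpha subunits Psma1, Psma4 and Psma5, the ATPases Psmc3 and Psmc6, the lid subunit Psmd11 and Psmd14, the lid enzyme that removes ubiquitin from substrates. Psmc6 differed by 0.058 on the probe set used. Its other probe sets went the other way, at -0.14 (mean signal 10.7) and -0.0049 (mean signal 8.39). Psma4 read 12.85, 12.87 and 12.88 in alone and 12.90, 12.98 and 12.92 in FAC, a difference of 0.067 ± 0.056 (SE, limma, n = 3 arrays per group). Psmc3 read 12.41, 12.39 and 12.45 in alone and 12.46, 12.54 and 12.53 in FAC, a difference of 0.095 ± 0.061. Both genes were higher in FAC without overlap, by amounts close to their standard errors. Psmd5, the chaperone that holds base ATPases during assembly, differed by 0.079 ± 0.069, Psmd13 of the lid by 0.062 ± 0.078, Psmb3 of the beta ring by 0.059 ± 0.065 and Psma1 by 0.043 ± 0.058. The limma adjusted p was 1.00 for each of these 6 genes, and the largest bound of any member's 95% interval was 0.38 (1.30-fold).

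With macrophages in the insert, most members were again slightly higher with iron, on a separate set of arrays. Comparing RAW_FAC with RAW asks how the liver line differed with iron in that setting. Of 37 members 34 had a higher mean in RAW_FAC (91.9%, against 50% of all genes), with a median difference of 0.059 (1.04-fold). The pairs gave medians of 0.097, 0.044 and 0.019 for replicate numbers 1, 2 and 3, and 19 members (51.4%, against 15.1% of all genes) were higher in all 3 pairs. Without number 1, in the fit with the block, the median was 0.032 and 67.6% of members were above 0. limma called 0 of 37 members without the block (0% of all genes) and 0 with it (0.0769%). At an unadjusted p under 0.05 it counted 1 member (5.71% of all genes) and 4 members with the block (11.2%). In this comparison the summed macrophage marker signal, most of it from Cd14, was also higher in RAW_FAC without overlap. Of the 12 markers 7 were above 0, with a median of 0.032, and limma called 0 of them in either fit. The part of this shift in the proteasome values was not tested.

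The groups did not overlap in 9 members, all higher in RAW_FAC (4.48% of all genes), and in 0 lower (5.27%). Psmd1, the scaffold of the base, read 12.16, 12.20 and 12.24 in RAW and 12.37, 12.30 and 12.31 in RAW_FAC, a difference of 0.13 ± 0.060 (SE, limma, n = 3 per group; adjusted p 0.849). Psmb3 read 12.46, 12.61 and 12.62 in RAW and 12.62, 12.71 and 12.70 in RAW_FAC, a difference of 0.12 ± 0.065. Psma4 read 12.81, 12.90 and 12.85 in RAW and 12.94, 12.95 and 12.94 in RAW_FAC, a difference of 0.094 ± 0.056. In these 3 genes every RAW_FAC array lay above every RAW array, and the first RAW array was the lowest of the 12 in each. Psmd5 read 10.71, 10.93 and 10.77 in RAW and 10.95, 10.98 and 10.90 in RAW_FAC, a difference of 0.14 ± 0.069 with overlapping groups. The lid subunit Psmd3 had the largest difference, 0.16 ± 0.094, from 10.39, 10.37 and 10.58 in RAW to 10.58, 10.47 and 10.77 in RAW_FAC. Its groups overlapped as read across numbers, and it was higher in each same-number pair, by 0.19, 0.10 and 0.19. Psma7 of the alpha ring differed by 0.11 ± 0.062, nearly all of it in the pairs numbered 1 and 2 (0.19, 0.12 and 0.0052).

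The comparisons of FAC with alone and of RAW_FAC with RAW share no array. A higher mean with iron in both was found for 29 of 37 members (78.4%), against 28.3% of all genes, for 10 of 16 core members and for 19 of 21 regulatory members. Only Psmb11 of the 37 was lower in both, by amounts inside its spread at a signal below the array median. Psmd6 of the lid and the ATPase Psmc4 were below 0 without macrophages (-0.0092 and -0.025) and above 0 with them (0.095 and 0.091). The other probe set of each gene did not show this change of sign. It gave 0.037 without and -0.011 with macrophages for Psmd6, and 0.025 and 0.18 for Psmc4.

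**Figure D2:**
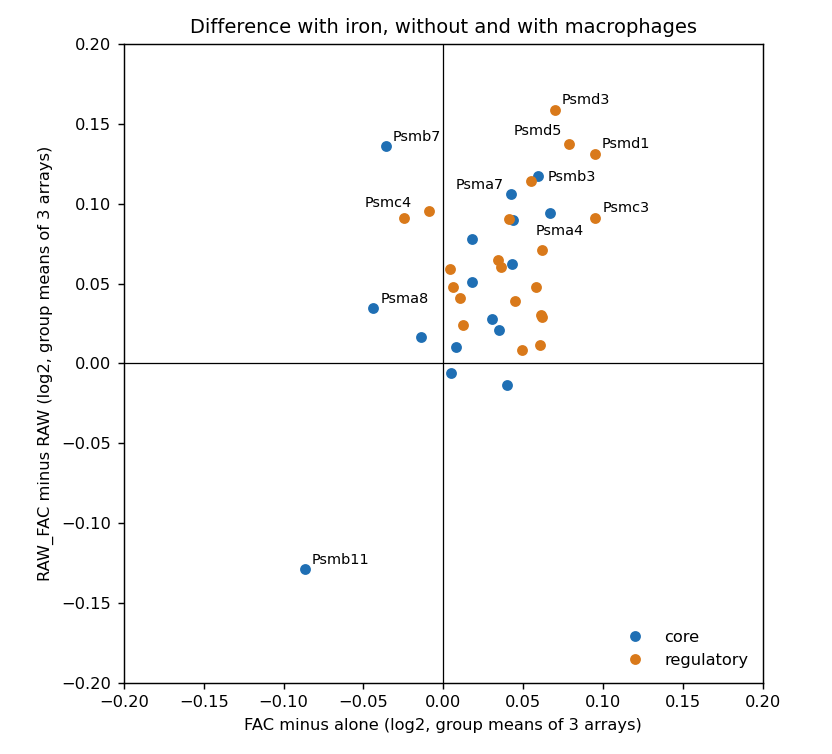
The horizontal axis is the log2 difference FAC minus alone and the vertical axis RAW_FAC minus RAW, each between means of 3 arrays, with 1 point per member coloured by particle. Of 37 points 29 lie above 0 on both axes, Psmb11 alone lies below 0 on both, and no difference passed the limma test.

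The average of both iron comparisons uses all 12 arrays. Its median over the members was 0.046 (1.03-fold), against -0.0019 for all genes, and 34 of 37 were above 0 (91.9%, against 48.9%). In 22 members (59.5%, against 14.7% of all genes) it was above 0 for all 3 replicate numbers, whose medians were 0.060, 0.048 and 0.020. By role the median was 0.034 in the 7 alpha subunits (6 above 0), 0.041 in the 4 beta subunits without a catalytic site (4 above 0) and 0.048 in the 3 catalytic ones (3 above 0). In the regulatory particle it was 0.044 in the 6 ATPases, 0.050 in the 3 other base subunits and 0.047 in the 8 lid subunits, with each of these 17 above 0. The 3 assembly chaperones were also above 0, with a median of 0.029. These medians by role thus lay between 0.029 and 0.050. Single members ranged more widely, from -0.11 (Psmb11) to 0.11 (Psmd3), and the lowest standard subunit, Psma2, was at -0.00048.

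limma called 0 members for the average (0.0055% of all genes) and 0 with the block (0.791%). At an unadjusted p under 0.05 it counted 3 members (6.51%) and 6 with the block (12.3%), shares of the 37 that are not far from the background. The 6 were Psmd3 and Psmd1 (0.11 each), Psmd5 (0.11), Psmc3 (0.093), Psmb3 (0.088) and Psma4 (0.080), with block-adjusted limma p from 0.251 to 0.369. With the block, no 95% interval of a standard subunit reached beyond 0.23 (1.18-fold) in either direction. Beside these values, all 6 fibroblast markers (collagen genes, Thy1, Pdgfrb and Vim) had averages below 0 with iron, with a median of -0.092, and 0 passed in either fit. Apart from Vim (mean signal 14.1), these markers had mean signals of 4.21 to 5.41, below the array medians of 5.63 to 5.68. Of the 8 hepatocyte markers 6 had averages above 0 with iron (median 0.035). With the block 1 passed, Afp, the gene of alpha-fetoprotein (0.45 ± 0.070, block-adjusted limma p 0.0168). Hnf4a went the other way, with group means of 10.56 in alone, 10.45 in FAC, 10.44 in RAW and 10.36 in RAW_FAC. The part of such differences in the proteasome values was not tested.

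**Figure D3:**
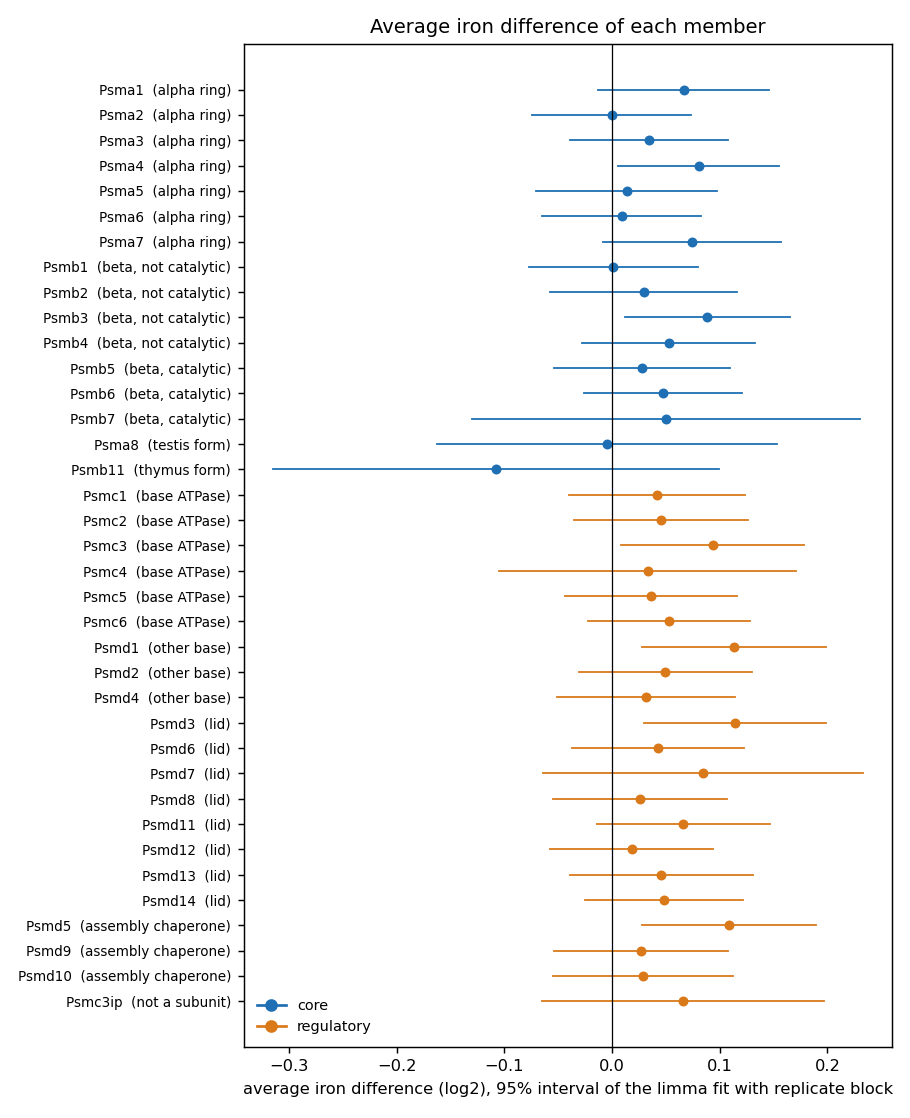
Each row is a member with its role, and the horizontal axis gives its average iron difference in log2 units with the 95% interval from the limma fit with the replicate block. The intervals of 6 members lie above 0 before adjustment for multiple tests, and those of all others include 0.

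**Figure D4:**
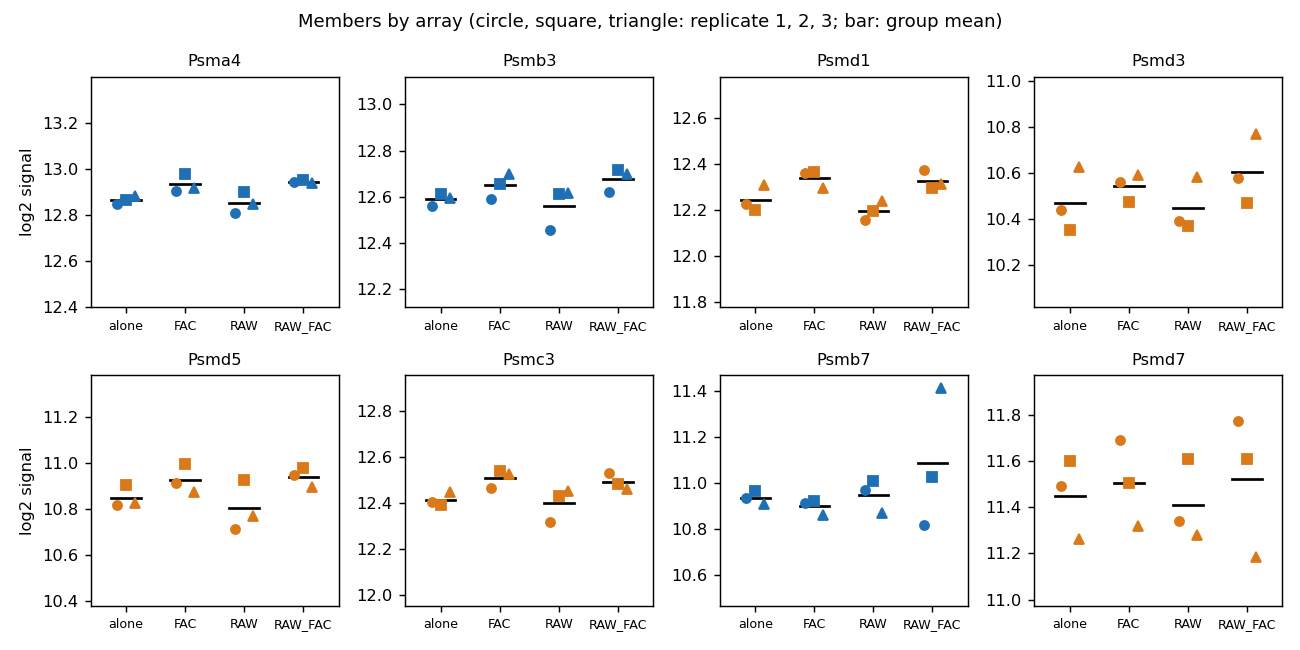
Each panel plots the log2 signal of 1 member in the 12 arrays by group, with the replicate number as the marker shape and the group mean as a bar. Psmd1 and Psma4 sit higher in both iron groups, the RAW_FAC array of Psmb7 numbered 3 stands at 11.42, and the arrays of Psmd7 numbered 3 are the lowest in each group.

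The core members had a smaller median iron difference than the regulatory members, by amounts close to or below the spread of the replicate numbers. The median difference of the core minus that of the regulatory members was -0.025 for FAC against alone, with -0.043, -0.038 and -0.0039 for the 3 numbers (SD 0.022). For RAW_FAC against RAW it was -0.018, with -0.049, -0.023 and 0.016 (SD 0.033), and for the average -0.014, with -0.058, -0.0097 and 0.0035 (SD 0.032). Of these 3 comparisons, only FAC against alone had one sign in all 3 numbers and a value larger than its SD, and there the sign held in all 36 alternatives (-0.035 to -0.0081). Among the 31 standard subunits alone the core minus regulatory values were -0.022, -0.0036 and -0.0046 for these 3 comparisons. For FAC against alone these subunits gave -0.030, -0.047 and 0.0014 in numbers 1, 2 and 3. The single sign across numbers was therefore found with all members and not among the standard subunits alone. For RAW against alone the value was 0.0014 (SD 0.010) and for RAW_FAC against FAC 0.0052 (SD 0.013). In the RAW arrays the core medians were -0.054, 0.011 and -0.032 from the gene means and the regulatory medians -0.068, -0.0041 and -0.023, so both particles were low in the same 2 arrays.

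The catalytic subunits give the core its proteolytic sites. Psmb5, with the chymotrypsin-like site, read 12.59, 12.58 and 12.57 in alone, 12.53, 12.69 and 12.63 in FAC, 12.55, 12.67 and 12.57 in RAW and 12.61, 12.63 and 12.62 in RAW_FAC. Its groups overlapped in both iron comparisons, with differences of 0.035 ± 0.062 and 0.021 ± 0.062 (SE, n = 3 per group), and every RAW_FAC array lay above every alone array. Psmb6, with the caspase-like site, read 12.18, 12.26 and 12.21 in alone, 12.22, 12.25 and 12.23 in FAC, 12.16, 12.24 and 12.13 in RAW and 12.25, 12.29 and 12.24 in RAW_FAC. It was higher with iron in all 3 pairs with macrophages, by 0.078 ± 0.057, and its groups overlapped. Psmb7, with the trypsin-like site, read 10.94, 10.97 and 10.91 in alone, 10.91, 10.93 and 10.86 in FAC, 10.97, 11.01 and 10.87 in RAW and 10.82, 11.03 and 11.42 in RAW_FAC. Its RAW_FAC array numbered 3 was the highest and its RAW_FAC array numbered 1 the lowest of the 12. The RAW_FAC against RAW difference of Psmb7 was 0.14 ± 0.11, -0.028 without the RAW_FAC array numbered 3 and 0.27 without the RAW_FAC array numbered 1. Psmb7 has 1 probe set here, so no other probe set bears on that value.

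The immunoproteasome subunits that replace these 3 gave no call in any of the 8 comparisons, in either fit. Psmb8, which replaces Psmb5, had a mean signal of 5.27, and RAW_FAC against RAW gave -0.078 ± 0.064. Psmb9, which replaces Psmb6, had a mean signal of 6.23, with a difference between the iron effects with and without macrophages of 0.19 ± 0.11 (interaction, limma adjusted p 1.00). Psmb10, which replaces Psmb7, read 9.10, 9.26 and 9.04 in alone and 9.37, 9.40 and 9.38 in RAW_FAC, a difference of 0.25 ± 0.11 (limma adjusted p 0.956, and 0.390 with the block). For Psmb10 every RAW_FAC array lay above every alone array.

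Macrophages without iron went with no common direction that held under every scaling. For RAW against alone 26 of 37 members were below 0, the median was -0.015, and 29.7% were above 0, against 49.8% of all genes and 39.4% of the 2742 genes with signals as high. After quantile normalization 54.1% were above 0 and the median was 0.0015. After centring of each array 18.9% were above 0. The pairs gave medians of -0.046, 0.022 and -0.021, and without replicate number 1, in the block fit, 54.1% were above 0. limma called 0 members with and without the block (0% of all genes in both), and 0 at an unadjusted p under 0.05 (3.81% and 6.13% of all genes). Psma7 was the 1 member with groups apart (3.61% of all genes in this direction), with 12.48, 12.47 and 12.47 in alone and 12.40, 12.41 and 12.41 in RAW, a difference of -0.067 ± 0.062. No member was higher without overlap (5.16% of all genes).

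Other members of this comparison had wider spreads. Psmd10, the chaperone gankyrin, differed by 0.12 ± 0.094, Psmc3ip by -0.10 ± 0.095, Psmd1 by -0.049 ± 0.060, Psma1 by -0.042 ± 0.058 and Psmb6 by -0.038 ± 0.057, each with 1 sign in all 3 pairs. They were named for having 1 sign. In all 3 pairs 10 of 37 members were lower (27%, against 16.3% of all genes and 23.9% of the 2742 genes with signals as high). Only 1 was higher in all 3 (2.7%, against 14.9% of all genes). Psmc4, named after its values were seen, had the largest absolute difference, -0.17 ± 0.090. It read 12.60, 12.67 and 12.53 in alone and 12.40, 12.36 and 12.54 in RAW, and its pair numbered 3 differed by 0.0062. The other probe set of Psmc4 gave a smaller difference, -0.072.

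With iron in both groups, macrophages made little difference. For RAW_FAC against FAC 21 of 37 members were above 0 (56.8%, against 53.9% of all genes), and 67.6% after centring of each array. The median was 0.0045, with 0.030, -0.0035 and -0.0100 in the pairs, and without the first RAW_FAC array, in the block fit, 37.8% were above 0. limma called 0 members in both fits (0% of all genes), and 0 at an unadjusted p under 0.05 (3.15% and 5.61% with the block). Psmd14 was higher without overlap (3.63% of all genes), at 13.10, 13.08 and 13.07 in FAC and 13.12, 13.13 and 13.14 in RAW_FAC. Psmc2, an ATPase of the base, was lower without overlap (3.02% of all genes), at 12.66, 12.70 and 12.65 in FAC and 12.63, 12.60 and 12.60 in RAW_FAC. The differences were 0.044 ± 0.054 and -0.063 ± 0.059. Psmd10 (0.074 ± 0.094), Psmd6 (0.067 ± 0.057), Psma3 of the alpha ring (0.027 ± 0.055) and Psmb6 (0.021 ± 0.057) were higher in all 3 pairs, with overlapping groups. They were named for having 1 sign in all pairs. In all 3 pairs 7 of 37 members were higher (18.9%, against 16.2% of all genes) and 2 lower (5.41%, against 11.4%). With the mean of all probe sets, Psma3 and Psmd6 turned to -0.057 and -0.014. The other probe set had a mean signal of 6.23 for Psma3 and of 12.4 for Psmd6.

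The combined treatment against alone shares arrays with the comparisons above. The median member difference was 0.045 and 30 of 37 were above 0 (81.1%, against 51.9% of all genes). The groups lay apart in 9 members that were higher (4.67%) and in 1 that was lower (4.36%), Psmb11. limma called 0 members (0% of all genes, and 0.203% with the block). At an unadjusted p under 0.05 it counted 0 (4.88%) and 2 with the block (10.1%), Psmd3 (0.13 ± 0.094) and Psmd10 (0.12 ± 0.094; the SE are from the fit without the block).

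The average macrophage difference had a member median of -0.0019, with 18 of 37 above 0. limma called 0 members in both fits (0.011% and, with the block, 0.055% of all genes), and 0 and 1 members at an unadjusted p under 0.05 (3.94% and 7%). The interaction, the iron effect with macrophages minus that without, had a median of 0.030 with 25 of 37 above 0 (67.6%, against 54.3% of all genes). This share was 83.8% after centring of each array and 56.8% after quantile normalization, and 43.2% in the block fit without replicate number 1. limma called 0 members for the interaction in both fits (0% of all genes), and 0 at an unadjusted p under 0.05 (2.97% and 4.34%). A difference between the iron effects in the 2 kinds of culture was therefore not detected for any member, with 95% intervals that reached up to 0.52 (1.43-fold).

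Part of the members varied together over the 12 arrays. As a description, the deviation of a member from its mean correlated with the median deviation of the other members at a median r of 0.54 (n = 12 arrays), and 19 of 37 members exceeded 0.5, against 1410 of 18194 genes set against the median member. Psma4 (0.96) and Psmd5 (0.91), whose promoters are printed above, stood highest, and Psma8 (-0.25) lowest. Pairs of core members had a median r of 0.21, pairs of regulatory members 0.29 and mixed pairs 0.23. Arrays share normalization, group and replicate number, which enter these values. The number of members above their own mean was 13, 13 and 11 of 37 in alone, 23, 27 and 21 in FAC, 6, 19 and 11 in RAW and 32, 26 and 21 in RAW_FAC. Every array with iron had more such members than any array without it.

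The 5 genes outside the set whose deviations were most like the median member over the 12 arrays were Fbxo9 (r 0.93), an F-box protein of ubiquitin ligases, Mafg (0.93), a small Maf partner of Nfe2l1 and Nfe2l2, the prefoldin subunit Pfdn6 (0.92), Gclm (0.92), the modifier subunit of the enzyme that limits glutathione synthesis, and Ethe1 (0.91), a mitochondrial sulfur dioxygenase. Their average iron differences were 0.21, 0.22, 0.11, 0.32 and 0.12. They were picked from 18194 genes for this likeness, so the r values have no test.

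Some members varied with the replicate number, as did many other genes. An F test of the replicate number in limma was chosen after the data were seen. In it 3 of 37 members passed, a smaller share than the 10.6% of all genes. Psmd7 of the lid read 11.49, 11.70, 11.34 and 11.78 in the arrays numbered 1 of alone, FAC, RAW and RAW_FAC, and 11.26, 11.32, 11.28 and 11.19 in those numbered 3. The mean difference of number 3 from number 1 was -0.31 (adjusted p 0.0409). Psmd10 was lowest in the arrays numbered 1 (10.54, 10.55, 10.55 and 10.59) and Psmd3 highest in those numbered 3 (10.63, 10.59, 10.58 and 10.77), with adjusted p 0.0277 and 0.0279. The Gapdh 3′ minus 5′ difference also varied with the number, as given above, and its part in these values was not tested.

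Genes that work with the proteasome were read from 6 lists, of which 30 of 40 genes were measured. limma called 0 of them in every comparison, in either fit. Of 4 activators and inhibitors of the core, 4 had an average iron difference above 0 (median 0.068). Psme1, a subunit of the activator PA28, differed by 0.21 ± 0.11 between RAW_FAC and alone, Psme3, another activator, by 0.11 ± 0.081, and Psmf1, an inhibitor, by 0.11 ± 0.079 between RAW_FAC and RAW. Of 5 core assembly chaperones 3 were above 0 (median 0.014), with Psmg1 at -0.056 ± 0.043. Of 5 other proteins bound to the regulatory particle 1 was above 0 (median -0.0077). Among these, Usp14, a ubiquitin hydrolase of the base, gave -0.12 ± 0.084 for RAW_FAC against RAW, Ecpas 0.11 ± 0.065 for RAW_FAC against alone and the ligase Ube3c -0.037 ± 0.056 for the iron average. The 3 immunoproteasome subunits had a median iron average of 0.023.

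Nfe2l1, the factor named above, is one of the transcription factors on these lists. It read 9.97, 10.05 and 10.32 in alone, 10.02, 10.48 and 10.51 in FAC, 10.03, 10.18 and 10.32 in RAW and 10.10, 10.49 and 10.59 in RAW_FAC. It was higher with iron in each of the 6 same-number pairs, its groups overlapped, and the average was 0.22 ± 0.11 (limma adjusted p 0.776, and 0.102 with the block). The other factors of this list were Nfe2l2, the main regulator of the oxidative stress response, with an average macrophage difference of -0.096 ± 0.047, and Nfe2l3, at -0.18 ± 0.098 for FAC against alone. The median iron average of the 4 measured genes of transcriptional control was 0.033, with 3 above 0. Of 9 measured ubiquitin and shuttle genes 8 were above 0 (median 0.063). Sqstm1, the autophagy receptor p62, read 11.32, 11.56 and 11.63 in alone, 11.39, 12.01 and 11.88 in FAC, 11.29, 11.84 and 11.68 in RAW and 11.43, 12.05 and 12.13 in RAW_FAC. It was higher with iron in all 6 pairs, with an average of 0.26 ± 0.14 (block-adjusted limma p 0.0842). Vcp, the ATPase that extracts ubiquitylated proteins, had an average of 0.16 ± 0.060 (block-adjusted limma p 0.116) and its cofactor Nploc4 a difference of 0.14 ± 0.079 between RAW_FAC and RAW.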

How the data were processed

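The data were 12 arrays of BNL CL.2 cells in 4 groups of 3. The authors deposited log2 signals per probe set. RMA and the affy package are named for them per the submitters' processing notes, with versions not given in the sources used here. RMA includes normalization between arrays, and no further scaling was applied. Of 45101 probe sets, 34958 had 1 symbol, 932 several and 9211 none in the platform annotation, and the latter 2 kinds were left out, which gave 18194 genes with the probe set of the highest mean each. Of the members, 20 had more than 1 probe set (76 in all). The number of arrays limits the precision.

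All genes were fitted in limma 3.58.1 (R 4.3.3) with a mean for each group and tested two-sided, with Benjamini-Hochberg adjustment over 18194 genes and a threshold of 0.05, for 8 comparisons. Residuals of the 18 same-number pairs of arrays correlated at 0.26 to 0.53, and those of 36 other pairs between groups at -0.35 to -0.015, so a fit with the replicate number as a block was given too; the pairing comes from the numbers in the titles, which do not say what they stand for. Standard errors are from the fit without the block unless stated; that of Afp is from the block fit. Members and gene lists were chosen with earlier results of these data known. List and member summaries are therefore counts and medians without a test. Named members were, for 4 comparisons, the 3 core and 3 regulatory ones with the largest difference among those with 1 sign in all same-number pairs, the catalytic subunits, and the members that are no standard subunit; others named were chosen after their values were seen. From each list up to 3 genes were named by the smallest p, and the 5 genes most like the median member were added. Genes on the lists that had no single-symbol probe set were not analysed here. Alternatives were the block, array weights, trend and robust moderation, a fit to the compared groups, a filter at the median level, centring, quantile normalization, other probe set choices and leaving out arrays. Fits were tested on simulated data. Tables and plots used Python 3.11.15, numpy 2.4.6, pandas 2.3.3 and matplotlib 3.10.9.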

Additional observations from a re-analysis of the deposited data

Results flagged for a closer look

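Psmb6 and Psmd6 stood out because the macrophage difference had one sign in all 3 same-number pairs without iron and the opposite sign in all 3 pairs with iron. Psmb6, the caspase-like subunit, was at -0.038 for RAW against alone and at 0.021 for RAW_FAC against FAC. Psmd6 of the lid was at -0.038 and 0.067. The interaction itself did not pass in limma for either gene (0.060 ± 0.080 and 0.10 ± 0.081, adjusted p 1.00 for both). The other probe set of Psmd6, with a mean signal of 12.4, did not show the reversal. It was at -0.046 for RAW against alone and at -0.094 for RAW_FAC against FAC. With the mean of its 2 probe sets Psmd6 was at -0.014 for RAW_FAC against FAC. Groups of 3 arrays are too small for the check of single arrays that stand apart.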

How the results depend on the processing

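No member passed in limma under any of the 35 or 36 alternatives run for each comparison. The member medians for FAC against alone stayed between 0.022 and 0.044, for RAW_FAC against RAW between 0.032 and 0.079 and for the iron average between 0.032 and 0.055. The share of members above 0 moved more. It ran from 70.3% to 88.6% for FAC against alone and from 67.6% to 97.3% for RAW_FAC against RAW. For the iron average it ran from 81.1%, with the mean of all probe sets, to 97.3%. The replicate block fit called 0 members in each of the 8 comparisons and changed no call. Core minus regulatory stayed negative for FAC against alone (-0.035 to -0.0081). For the iron average its sign did not hold (-0.031 to 0.0061). For RAW against alone it was -0.0099 with array weights and -0.012 with the mean of all probe sets. For the average macrophage difference it was -0.0036 under both of these and -0.0019 with probe sets without _s_ or _x_ in the ID preferred. Leaving out arrays or a replicate number, with or without the block, gave core minus regulatory values from -0.034 to 0.016 for RAW_FAC against RAW, -0.019 to 0.021 for RAW against alone, -0.014 to 0.032 for RAW_FAC against FAC, and -0.014 to 0.017 for the average macrophage difference. With the block the values that moved were 0.013 without the alone array numbered 1 and 0.012 without number 2 for RAW against alone. For the average macrophage difference they were -0.0042 and 0.00048 without the alone arrays numbered 1 and 2, -0.0012 without FAC array 2, -0.0064 and -0.0012 without RAW arrays 1 and 2, -0.0048 and -0.0054 without RAW_FAC arrays 2 and 3, and -0.0055 and -0.00044 without replicate numbers 2 and 3. Signs reversed for 3 named genes. With the mean of all probe sets, RAW_FAC against FAC was -0.057 for Psma3 and -0.014 for Psmd6. The other probe set of Psma3 gave -0.14 at a mean signal of 6.23, far below the 13.3 of the one used. That of Psmd6 gave -0.094 at 12.4, close to the 12.5 of the one used. For RAW_FAC against RAW, Psmb7 was at 0.27 without the RAW_FAC array numbered 1, at -0.028 without the one numbered 3 (-0.053 with the block) and at -0.069 without all arrays numbered 3. For RAW_FAC against FAC with the block, it was at -0.0027 without the RAW_FAC array numbered 3. The cause was not tested. Member signals lay near the top of the scale, and whether differences are compressed there was not tested.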
